A study of Mus musculus with 6 samples.

Results

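The 6 genes described here are the tissue inhibitors of metalloproteinases Timp1, Timp2, Timp3 and Timp4, the membrane-anchored inhibitor Reck, and Bsg, which encodes basigin, the extracellular matrix metalloproteinase inducer. They were taken by gene symbol from a table of 53342 genes, and all 6 were found. Their transcripts were measured by RNA sequencing in dental pulp, the soft tissue inside the tooth, of 3 WT and 3 Mmp13-/- mice. All mice were C57BL/6, 3 months old and, by the study's methods, male. The Mmp13-/- mice (labelled MMP13KO) were homozygous for loss of the collagenase MMP13 in every tissue, and no agent was given to either genotype. Samples carry the replicate numbers 2, 4 and 5 for WT and 1, 2 and 6 for Mmp13-/-, and each was an independent biological sample by the study's methods. Those methods name incisors as the source of the pulp, whereas the titles of the WT samples name molars and those of the Mmp13-/- samples name no tooth, so a difference in tooth between the genotypes cannot be told apart from genotype. The comparison asks how loss of MMP13 goes with the transcripts of the proteins that hold metalloproteinases in check or raise their production.

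TIMPs are small secreted proteins that bind the active site of a matrix metalloproteinase (MMP) in equal numbers and block it. TIMP3 stays bound to the matrix and also blocks the sheddase ADAM17 and the aggrecanases of the ADAMTS family, whereas TIMP2 additionally takes part in activating pro-MMP2 on the membrane enzyme MMP14. RECK is anchored to the cell surface, restrains several MMPs and acts with ADGRA2 as a co-receptor for WNT7, and basigin raises MMP production in neighbouring cells and carries lactate transporters to the cell membrane. In the dentin and pulp these enzymes turn over the collagenous matrix.

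The libraries of the genotypes differed in make-up as well as in genotype. Totals were 28442936 to 29980236 estimated counts in WT and 21561420 to 26547121 in Mmp13-/-. Mmp13 stood at 36.8, 39.1 and 30.1 CPM in the WT samples (CPM, counts scaled to a common library size with TMM factors), against 0.322, 1.097 and 2.33 CPM in the Mmp13-/- samples 1, 2 and 6. Satellite-like repeat genes took 0.0302% to 0.0414% of the counts in WT and 5.51%, 9.70% and 43.2% in those 3 Mmp13-/- samples, so sample 6 stood apart. Odorant and vomeronasal receptor genes, which are not known to act in pulp and served as a measure of background, gave 0.137 to 0.255 counts per kilobase in WT, against 1.63, 1.88 and 4.90 in the same Mmp13-/- samples. The log2 fold change fell with the GC content of the transcript, from a median of 0.87 in the lowest to −1.13 in the highest of 10 equal bins by GC content. These bins held tested protein-coding genes with an average log2 CPM above 3.

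Markers of several cell types differed between the genotypes too. Beside the counts below, 27.3% of all genes tested passed as higher and 24.3% as lower in the test described later. Skeletal muscle markers summed to 43873 to 50475 CPM in WT, against 8259 to 19139 CPM in Mmp13-/-, and 7 of 8 fell. Odontoblast markers summed to 36814 to 44306 CPM in WT, against 10753 to 13472 CPM in Mmp13-/-, where 5 of 8 fell and 2 rose. Most of these sums was Col1a1, which alone took 3.41% to 4.12% of all counts in WT and 0.686% to 1.15% in Mmp13-/-. The sums therefore describe mainly that gene. Of 8 pulp fibroblast markers 4 fell and 3 rose, of 7 endothelial markers 3 fell and 1 rose, and of 7 mural markers 3 fell and 3 rose. Blood cell markers were higher in Mmp13-/-, with 8 of 8 neutrophil markers, 6 of 8 macrophage and osteoclast markers, 6 of 7 B cell markers and 6 of 7 erythroid markers passing the test upward and none downward. Neutrophil markers summed to 132 to 276 CPM in WT, against 691 to 1709 CPM in Mmp13-/-. Of 8 epithelial and ameloblast markers 2 fell, of 7 Schwann cell markers 2 fell, and of 5 adipocyte markers 3 rose. No marker was at 0 in every sample. The part of cell make-up, repeat reads and GC content in the values of the 6 genes was not tested. In bulk tissue fewer cells of a type and less RNA per cell cannot be told apart.

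Levels are first compared between genes per kilobase of exon. In WT, Bsg at 123 ± 12.4 CPM per kb (SD, n = 3) and Timp2 at 117 ± 18.0 led, and their ranges overlapped. Timp3 followed at 36.1 ± 6.64 CPM per kb, then Timp1 at 7.87 ± 0.733 and Reck at 7.27 ± 1.12, whose ranges overlapped, and Timp4 at 1.21 ± 0.314. In Mmp13-/- the order was Bsg at 94.0 ± 15.3, Timp3 at 74.7 ± 15.9, Timp2 at 69.4 ± 9.58, Timp1 at 12.97 ± 4.96, Reck at 6.90 ± 0.567 and Timp4 at 1.51 ± 0.300 CPM per kb (SD, n = 3). Here Bsg overlapped Timp3 and Timp3 overlapped Timp2. Libraries of either genotype thus held TIMP transcripts of very unequal abundance, with Timp2 and Timp3 far above Timp1 and Timp4. How much of each came from the skeletal muscle whose markers the libraries held was not tested.

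Genotypes were compared for each gene with edgeR's quasi-likelihood test, fitted to all 24534 genes with enough counts and adjusted over all of them, and a gene passes at an adjusted p under 0.05. All 6 genes were tested. Timp1 and Timp3 passed as higher in Mmp13-/- (2 of 6, against 27.3% of all genes tested) and Timp2 as lower (1 of 6, against 24.3%), and in either direction 51.6% of all genes tested passed. Timp3 was the 1 gene of the 6 that also changed over 2-fold, which 30.1% of all genes tested did (20.4% higher and 9.68% lower). In 4 genes, Timp1, Timp2, Timp3 and Bsg, the samples of the genotypes did not overlap, as in 60.9% of all genes tested (31.8% with Mmp13-/- above and 29.1% with it below). The median log2 fold change of the 6 was 0.12, beside 0.10 for all genes tested. With 6 genes these shares lie near those of all genes tested, and nothing is read from them about the group. Without Mmp13-/- sample 6, the library that stood apart, the log2 fold changes were 0.94 for Timp1, −0.68 for Timp2, 0.96 for Timp3, 0.16 for Timp4, −0.02 for Reck and −0.25 for Bsg, and the same 3 genes passed.

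**Figure D1:**
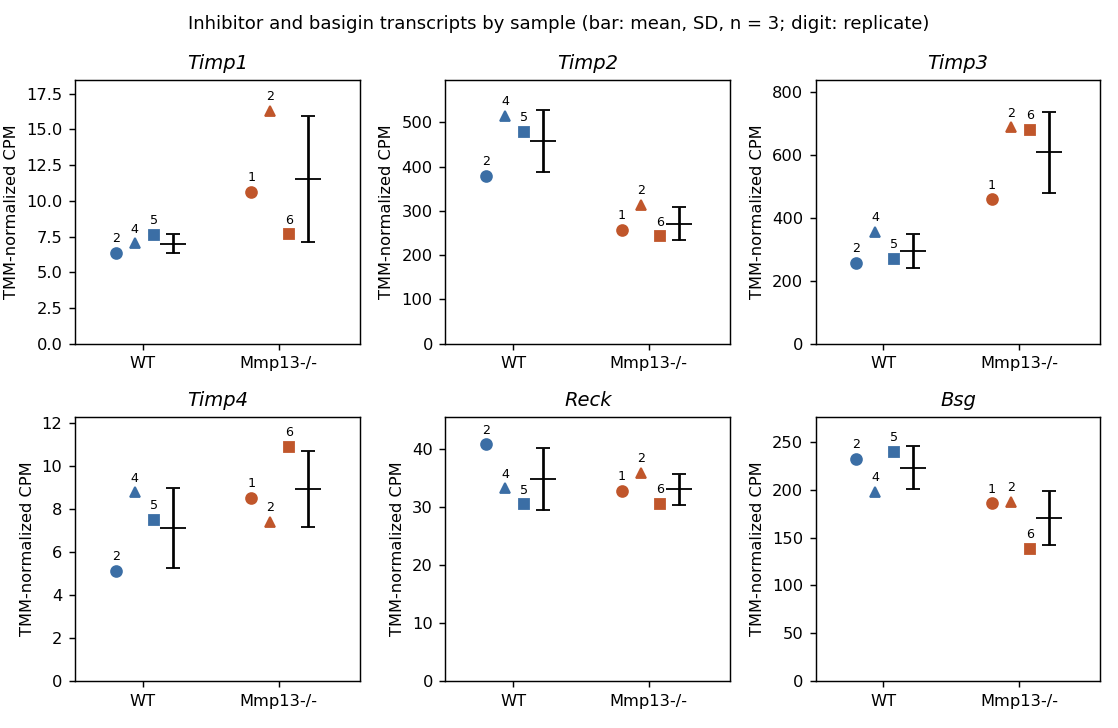
Each panel plots TMM-normalized CPM (vertical axis, from 0) of a gene in the 3 WT (blue) and 3 Mmp13-/- (orange) samples, with the replicate number above each point and the mean and SD as a black bar. Timp2 and Bsg lie lower and Timp3 higher in every Mmp13-/- sample, Timp1 of Mmp13-/- sample 6 lies level with WT, and Timp4 and Reck overlap.

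Timp3, the matrix-bound inhibitor, had the largest change of the 6 with TMM factors. Timp3 (ENSMUSG00000020044) lies at chr10:86300372-86349506 on the plus strand of GRCm38. It measured 256, 356 and 269.8 CPM in the WT samples 2, 4 and 5, against 459, 688 and 679 CPM in the Mmp13-/- samples 1, 2 and 6. Every Mmp13-/- sample was above every WT sample, and sample 1 was the lowest of the Mmp13-/- samples. The mean rose from 294 ± 54.1 to 609 ± 130 CPM (SD, n = 3), which is a log2 fold change of 1.05 (standard error 0.23, 95% interval 0.55 to 1.55, adjusted p = 0.00358 from edgeR). It passed under every alternative run, with log2 fold changes of 0.88 to 1.27. Genes in the same bin of GC content had a median of −0.07, and the value was 1.08 with each library corrected for GC content.

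Timp2, the most abundant TIMP transcript of the WT libraries, was lower in Mmp13-/-. Timp2 (ENSMUSG00000017466) lies at chr11:118301069-118355740 on the minus strand. It measured 379, 514 and 478 CPM in the WT samples 2, 4 and 5, against 256, 313 and 242 CPM in the Mmp13-/- samples 1, 2 and 6. All 3 Mmp13-/- samples were below the lowest WT sample. The mean went from 457 ± 70.0 to 270.4 ± 37.3 CPM (SD, n = 3), which is a log2 fold change of −0.76 (standard error 0.19, 95% interval −1.19 to −0.33, adjusted p = 0.00862 from edgeR). The median of the 1056 genes in its GC bin was −0.63, and with the GC correction Timp2 was at −0.09 and did not pass (adjusted p = 0.643 from edgeR). It also did not pass with total counts as the scaling (−0.64, adjusted p = 0.183 from edgeR) or in limma on the deposited log2 values (−0.82, adjusted p = 0.0572).

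Timp1, an inhibitor with strong affinity for MMP9 that is commonly induced by cytokines, was low and variable. Timp1 (ENSMUSG00000001131) lies at chrX:20870166-20874735 on the plus strand. It measured 6.33, 7.02 and 7.63 CPM in the WT samples 2, 4 and 5, against 10.6, 16.3 and 7.64 CPM in the Mmp13-/- samples 1, 2 and 6. Mmp13-/- sample 2 was the highest, and sample 6 was above WT sample 5 by a margin visible only in the second decimal. The mean rose from 6.99 ± 0.651 to 11.5 ± 4.40 CPM (SD, n = 3), which is a log2 fold change of 0.72 (standard error 0.25, 95% interval 0.16 to 1.29, adjusted p = 0.0354 from edgeR). The call was lost without Mmp13-/- sample 2 (0.33, adjusted p = 0.246 from edgeR), without Mmp13-/- sample 1 and without any of the WT samples 2, 4 and 5 (adjusted p of 0.0575 to 0.125), and in DESeq2 (adjusted p = 0.0568) and limma (adjusted p = 0.232). Genes in the same GC bin had a median of −0.63, and with the GC correction Timp1 was at 1.25 and passed (adjusted p = 0.00488 from edgeR).

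Timp4, known from heart and adipose tissue, was the least abundant. Timp4 (ENSMUSG00000030317) lies at chr6:115241892-115252205 on the minus strand. It measured 5.11, 8.76 and 7.48 CPM in the WT samples 2, 4 and 5, against 8.48, 7.39 and 10.9 CPM in the Mmp13-/- samples 1, 2 and 6. The genotypes overlapped, with WT sample 2 lowest and Mmp13-/- sample 6 highest. The log2 fold change of 0.32 did not pass (standard error 0.23, 95% interval −0.20 to 0.84, adjusted p = 0.275 from edgeR). Without WT sample 2 it was 0.049 and without Mmp13-/- sample 6 it was 0.16, and it did not pass under any alternative run. A background equal to that of the receptor genes would be 15.4% of the Timp4 counts in sample 6 and at most 4.996% in the other samples.

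The DNA before the genes that passed as higher is shown because it borders the start of their transcripts and because they differ in base composition. Windows of 250 bases before to 50 after the start of transcription were taken from RefSeq for GRCm38.p6, where 5 of the 6 genes were found, and the bases before the first annotated exon are printed 5′ to 3′. Capitals mark matches to the motifs searched on both strands, here CAGGAAG (an Ets motif), GGGCGG (a GC box) and CCAAT. The stretches are chrX:20869916-20870165 for Timp1 and chr10:86300162-86300371 for Timp3, both on the plus strand. For Timp3 the first annotated exon begins before the start used for the window, so 210 bases are printed. The GGGCGG matches of its window, at −15 and 14 from that start, lie beyond them.
Timp1: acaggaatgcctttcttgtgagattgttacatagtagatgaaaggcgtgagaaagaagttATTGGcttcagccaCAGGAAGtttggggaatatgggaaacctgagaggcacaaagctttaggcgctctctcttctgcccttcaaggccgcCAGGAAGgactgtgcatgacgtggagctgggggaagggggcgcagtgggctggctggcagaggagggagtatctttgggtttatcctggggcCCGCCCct
Timp3: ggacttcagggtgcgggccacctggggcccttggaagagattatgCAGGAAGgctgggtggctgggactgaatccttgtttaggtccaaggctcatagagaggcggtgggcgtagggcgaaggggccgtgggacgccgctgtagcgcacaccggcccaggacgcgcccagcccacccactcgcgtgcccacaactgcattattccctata
In these windows Timp1 held CAGGAAG 3 times, once after the start, and Timp3 held it once, and 13.3% of 32851 windows of this length hold it. Timp1 also held TGAGTAA, a variant of the AP-1 motif, 27 bases after the start, as do 2.68% of windows. No window of the 5 genes held the AP-1 letters TGANTCA or the TATA letters TATAAA, which 7.81% and 13.6% of windows hold. GGGCGG, present in 35.7% of windows, occurred once in Timp1, once in Timp2, 2 times in Timp3 and 3 times in Reck, and CCAAT, present in 37.4%, occurred once each in Timp1, Timp2 and Reck. GC content of the windows was 68.7% in Timp2, 67.0% in Timp3 and 69.3% in Reck, above the 55.0% of Timp1 and the 53.3% of Timp4. The motifs do not overlap each other in the windows, and a match describes letters and not a bound factor.

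The TIMP transcripts of a library can be set against each other without a scaling factor, as the share of each in their summed counts per kilobase. Timp2 made up 71.2%, 71.3% and 74.1% in the WT samples 2, 4 and 5, against 48.6%, 43.5% and 39.8% in the Mmp13-/- samples 1, 2 and 6. Timp3 made up 23.0%, 23.6% and 19.995% in WT, against 41.6%, 45.8% and 53.5% in Mmp13-/-. Neither share overlapped between the genotypes, and in Mmp13-/- sample 6 the 2 inhibitors stood furthest from WT. The mean share of Timp2 went from 72.2 ± 1.63% to 44.0 ± 4.37% (SD, n = 3) and that of Timp3 from 22.2 ± 1.94% to 46.9 ± 6.02% (SD, n = 3). Each difference had p = 0.1 in an exact two-sided permutation test, the smallest that 3 against 3 samples allow.

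Timp1 made up 4.27% to 5.21% of the pool in WT and 5.52% to 9.96% in Mmp13-/-, without overlap (exact permutation p = 0.1). Timp4 made up 0.633% to 0.802% in WT and 0.681% to 1.18% in Mmp13-/-, with overlap (exact permutation p = 0.3). The ratio of Timp3 to Timp2, per kilobase, was 0.323, 0.331 and 0.270 in WT, against 0.856, 1.05 and 1.34 in the Mmp13-/- samples 1, 2 and 6. On means per kilobase Timp2 was 3.25 times Timp3 in WT, whereas in Mmp13-/- Timp3 was 1.08 times Timp2 and their ranges overlapped. These values depend on the length used, that of all annotated exons joined (3896 bases for Timp2 and 8144 for Timp3). Without length, mean Timp2 and Timp3 were 457 and 294 CPM in WT, against 270.4 and 609 CPM in Mmp13-/-. The summed level of the 4 TIMPs was 137, 185 and 166 CPM per kb in WT, against 136, 184 and 156 CPM per kb in Mmp13-/- (162.5 ± 24.3 and 158.6 ± 24.5, SD, n = 3, exact permutation p = 0.7). The sum overlapped between the genotypes, as did the share of Timp4, while the shares of Timp1, Timp2 and Timp3 did not. With the GC correction, chosen for shares after seeing the data, Timp2 went from 68.1 ± 2.27% to 48.7 ± 4.84% and Timp3 from 26.3 ± 2.75% to 41.8 ± 6.62%, and the genotypes still did not overlap.

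**Figure D2:**
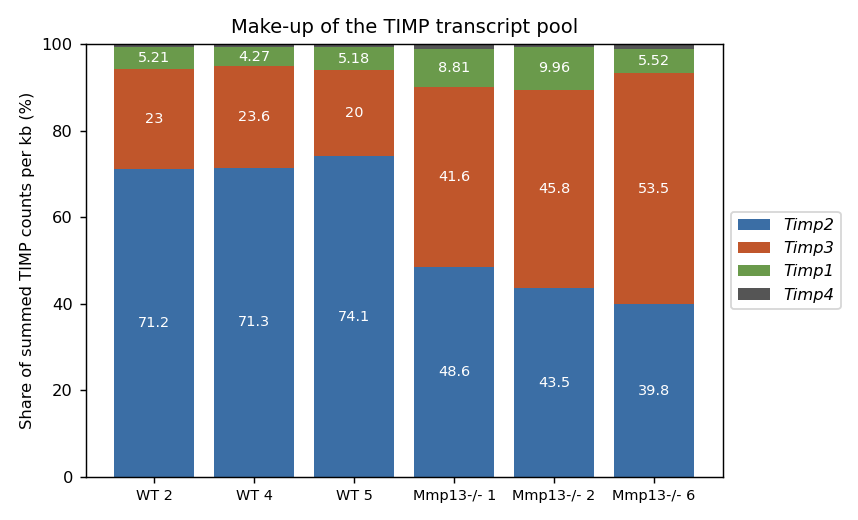
Stacked bars give the share in percent of Timp2 (blue), Timp3 (orange), Timp1 (green) and Timp4 (grey, top) in the summed TIMP counts per kilobase of each sample. The Timp2 part takes 71.2% or more of every WT bar and at most 48.6% of every Mmp13-/- bar.

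Reck, the anchored inhibitor, showed no detectable difference. Reck (ENSMUSG00000028476) lies at chr4:43875530-43944806 on the plus strand. It measured 40.7, 33.1 and 30.4 CPM in the WT samples 2, 4 and 5, against 32.6, 35.8 and 30.4 CPM in the Mmp13-/- samples 1, 2 and 6. The genotypes overlapped, with WT sample 2 highest. The log2 fold change was −0.08 (standard error 0.15, 95% interval −0.41 to 0.26, adjusted p = 0.703 from edgeR), and the interval lies within a 2-fold change in either direction. The sign turned positive under 5 alternatives, at most to 0.13 with upper-quartile factors.

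Bsg, the inducer, was the transcript with the highest level per kilobase and fell short of the threshold. Bsg (ENSMUSG00000023175) lies at chr10:79704491-79711969 on the plus strand. It measured 233, 197 and 239 CPM in the WT samples 2, 4 and 5, against 186, 187 and 138 CPM in the Mmp13-/- samples 1, 2 and 6. All 3 Mmp13-/- samples were below the lowest WT sample, and sample 6 was the lowest. The means were 223 ± 22.5 and 171 ± 27.8 CPM (SD, n = 3) and the log2 fold change −0.39 (standard error 0.18, 95% interval −0.78 to 0.01, adjusted p = 0.0939 from edgeR). It passed in DESeq2 (−0.43, adjusted p = 0.0365) and with factors taken without the most abundant genes (−0.47, adjusted p = 0.0256 from edgeR). Genes in its GC bin had a median of −0.74, and with the GC correction the direction turned, to 0.41 (adjusted p = 0.0504 from edgeR).

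**Figure D3:**
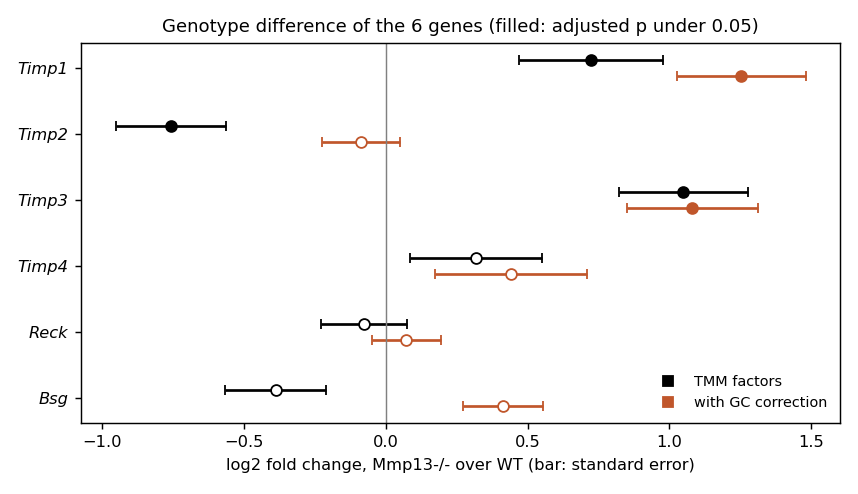
Points give the log2 fold change of Mmp13-/- over WT (horizontal axis) with its standard error, fitted with TMM factors (black) and with the GC correction (orange), and filled points have an adjusted p under 0.05. Timp3 keeps its place, Timp1 moves from 0.72 to 1.25, Timp2 moves from −0.76 to −0.09, and Bsg crosses 0.

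Among the enzymes that these proteins act on some rose and some fell, as among all genes tested (27.3% higher and 24.3% lower). With lists of this size nothing is read from the counts about the enzymes as groups. Of 17 secreted MMPs in a list 14 were tested, of which 3 rose, 5 fell and 6 did not pass, with a median log2 fold change of 0.37. Mmp8, the neutrophil collagenase, and Mmp27 rose by 2.92 and 2.46 on the log2 scale (adjusted p = 2.08e-05 and 0.00218 from edgeR), and Mmp13 itself and Mmp28, or epilysin, fell by 4.96 and 1.35 (adjusted p = 7.68e-05 and 0.000422 from edgeR). Of 6 membrane-type MMPs, Mmp16 rose by 0.84 (adjusted p = 0.0156 from edgeR), Mmp14 and Mmp15 fell by 1.23 and 1.66 (adjusted p = 0.000643 and 5.04e-05 from edgeR), and 3 did not pass. Of 9 proteolytic ADAMs 3 rose and 3 fell, with Adam10, the sheddase of Notch, at 0.92 and Adam15 at −1.02 (adjusted p = 0.00191 and 0.000982 from edgeR). Of 19 ADAMTS proteases 4 rose and 9 fell, with Adamts6 at 1.37 and Adamts4, an aggrecanase, at −1.75 (adjusted p = 0.00132 and 5.68e-05 from edgeR). The largest rises of the ADAM and ADAMTS lists were Adam28 at 2.05 and Adamts13 at 2.03 (adjusted p = 0.0238 and 0.0174 from edgeR). Both were low in WT, at 0.687 and 0.371 CPM. With the receptor background subtracted they were at 1.56 and 1.52 and did not pass. Under the GC correction Mmp14 was at −0.32, Mmp28 at −0.23, Mmp16 at 0.36 and Adam15 at 0.06, none of which passed. Of the lists, 2 secreted MMPs in place of 5, 1 membrane-type MMP in place of 2, 1 ADAM in place of 3 and 4 ADAMTS proteases in place of 9 fell under that correction. Over all genes tested, 2673 of 24492 fell under it, in place of 5955 of 24534. With total counts as the scaling 3 secreted MMPs, 1 ADAM and 3 ADAMTS proteases fell, beside 3069 of all 24534 genes tested. The call of Mmp16 was lost without WT sample 4 or 5 or Mmp13-/- sample 2 (0.54 to 0.71), 1 ADAM in place of 3 rose without WT sample 2 or 4, and 2 ADAMTS in place of 4 rose without WT sample 2 or 4 or Mmp13-/- sample 2. Over all genes tested, 6905 of 26939 rose without WT sample 2, 5829 of 26952 without WT sample 4 and 6243 of 25851 without Mmp13-/- sample 2.

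Timp1, Timp2, Timp3, Reck and the summed TIMPs were then set beside enzymes they are known to bind, as the log2 ratio of counts per kilobase within a library, over 7 ratios. Timp2 to Mmp14, the pair of the MMP2 activation complex, had linear ratios of 1.15, 1.31 and 1.27 in the WT samples 2, 4 and 5, against 1.79, 1.69 and 1.73 in the Mmp13-/- samples 1, 2 and 6. Timp2 to Mmp2 had linear ratios of 0.879, 0.876 and 0.944 in WT, against 0.687, 0.612 and 0.585 in Mmp13-/-. Both ratios separated the genotypes, in opposite directions, with log2 differences of 0.48 and −0.52. Mmp2 itself, at −0.23, did not pass (adjusted p = 0.355 from edgeR) and was at 0.44 with the GC correction, where it did not pass either (adjusted p = 0.0536 from edgeR).

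Timp3 to Adamts5, an aggrecanase that TIMP3 blocks, had linear ratios of 10.03, 13.8 and 11.03 in the WT samples 2, 4 and 5, against 24.3, 25.1 and 37.5 in the Mmp13-/- samples 1, 2 and 6. The log2 difference was 1.30 without overlap, and Adamts5 alone, at −0.23, did not pass (adjusted p = 0.288 from edgeR). Adamts5 passed as lower without Mmp13-/- sample 2 (−0.51, adjusted p = 0.0312 from edgeR) and when corrected for GC content (−0.67, adjusted p = 0.0101 from edgeR). Timp3 to Adam17 differed by 0.49 with overlap (exact permutation p = 0.2), by 0.29 without Mmp13-/- sample 6 and by 0.75 without Mmp13-/- sample 1, and Adam17 itself rose by 0.56 (adjusted p = 0.0107 from edgeR), a call lost without any sample other than Mmp13-/- sample 6 (0.42 to 0.54). Timp1 to Mmp9 differed by 0.12 with overlap (exact permutation p = 0.6), and Mmp9, at 0.52, did not pass (adjusted p = 0.0738 from edgeR). Mmp9 passed as higher when corrected for GC content (1.203, adjusted p = 0.0025 from edgeR), upper-quartile factors, background subtraction and at least 10 counts in every sample (0.65 to 0.72), and without WT sample 4 (0.70) or Mmp13-/- sample 6 (0.63). It was at 0.29 without WT sample 2 and at 0.27 without Mmp13-/- sample 2. Reck to Mmp14 differed by 1.17 without overlap. The summed TIMPs stood at 0.464 to 0.516 of the summed MMPs other than Mmp13 in WT and at 0.536 to 0.638 in Mmp13-/-, a log2 difference of 0.24 without overlap. Ratios without overlap each had an exact permutation p of 0.1, the smallest possible, and 0.14 after adjustment over the 7. With the GC correction Reck to Mmp14 (0.41) and the summed ratio (0.06) overlapped.

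**Figure D4:**
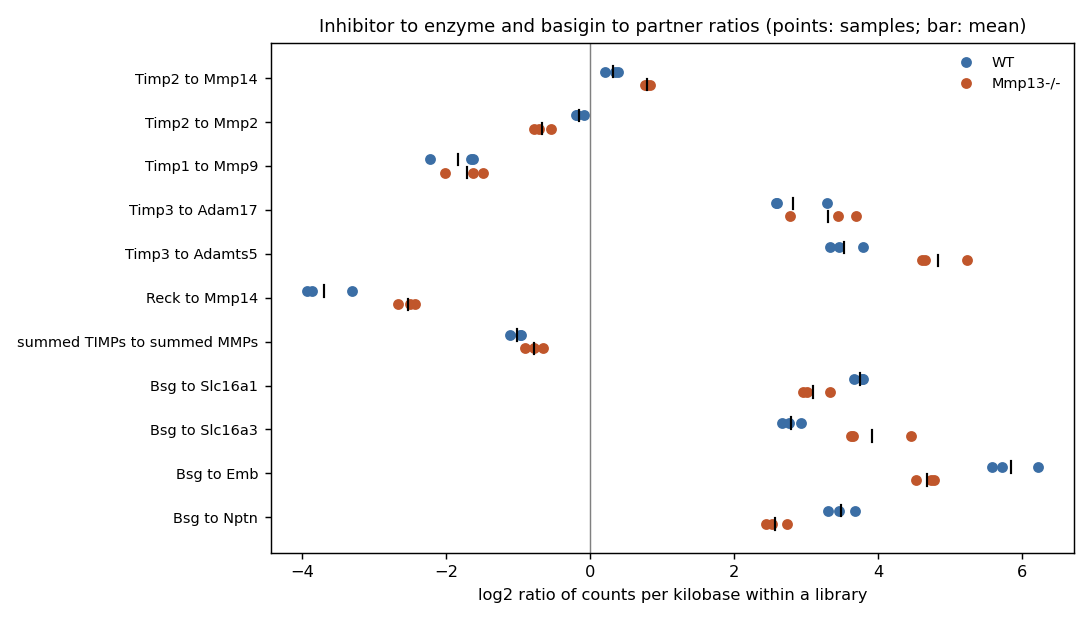
Points give the log2 ratio of counts per kilobase within each library (horizontal axis) for 7 inhibitor to enzyme and 4 basigin to partner ratios, in WT (blue) and Mmp13-/- (orange), with bars at the means. The largest separations among the inhibitors are Timp3 to Adamts5 and Reck to Mmp14, and Timp1 to Mmp9 and Timp3 to Adam17 overlap.

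A further list held 14 genes of other proteinase inhibitors, proteins that share the netrin-like domain of TIMPs, and matrix proteins such as testicans. Of these 5 rose, 2 fell and 7 did not pass. Of all genes tested 27.3% rose and 24.3% fell. The median log2 fold change of the list was 0.08. A2m and Pzp, broad proteinase traps of plasma, were low in WT at 0.280 ± 0.138 and 0.198 ± 0.0731 CPM and stood at 3.16 ± 1.86 and 1.84 ± 0.894 CPM in Mmp13-/- (SD, n = 3, log2 fold changes 3.45 and 3.17, adjusted p = 0.000673 and 0.00111 from edgeR). Both were highest in Mmp13-/- sample 6, the library with the most background. With the background of the receptor genes subtracted A2m was at 3.41 and Pzp at 2.84, and both passed (adjusted p = 0.000872 and 0.00234 from edgeR). Spock2, a testican, fell by 1.14 and Pcolce, the procollagen C-proteinase enhancer with a netrin-like domain, fell by 0.59 (adjusted p = 0.000217 and 0.00923 from edgeR). After GC correction Spock2 was at −0.31 and did not pass, and Pcolce turned to 0.35 and passed as higher (adjusted p = 0.0459 from edgeR). Without WT sample 2 or 5, 2 genes in place of 5 rose, without WT sample 4 or Mmp13-/- sample 1 it was 3, and without WT sample 5 the fallen genes were 4. With 1 sample left out, 5829 to 6905 of all genes tested (24934 to 26956) rose and 5088 to 5959 fell.

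The cell surface proteins that bind TIMPs or take them up all passed, 3 of 9 higher (beside 27.3% of all genes tested) and 6 lower (beside 24.3%), with a median log2 fold change of −0.64. Itgb1, the integrin β1 chain through which TIMP1 and TIMP2 act on cells, rose from 153 ± 19.3 to 362 ± 56.0 CPM (SD, n = 3, log2 fold change 1.24, adjusted p = 0.00056 from edgeR). Its partner Itga3, which binds TIMP2, fell by 1.04, and Lrp1, the endocytic receptor that clears TIMP3, fell by 1.03 (adjusted p = 0.000565 and 0.00246 from edgeR). Lrp2 was at 0.607, 0.0686 and 0 CPM in WT, against 1.11, 1.76 and 7.17 CPM in Mmp13-/- samples (log2 fold change 3.79, adjusted p = 0.0104 from edgeR). Like A2m and Pzp it was highest in sample 6, and with the background of the receptor genes subtracted it was at 3.05 and did not pass (adjusted p = 0.068 from edgeR). Nor did it pass in limma (adjusted p = 0.0518), and it was at 6.27 without WT sample 2. With the GC correction 3 of the 9 were higher and 2 lower, beside 6135 and 2673 of all 24492 genes tested. Itga3 (−0.10) and Lrp1 (−0.08) did not pass. With total counts as the scaling 2 were higher and 1 lower, beside 6851 and 3069 of all 24534 genes tested. Without WT sample 4 it was 2 and 4, beside 5829 and 5088 of 26952.

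Of 9 partners of Reck, 1 rose (beside 27.3% of all genes tested) and 5 fell (beside 24.3%). Their median log2 fold change was −0.94 beside the −0.08 of Reck itself. Adgra2, the receptor that joins RECK in WNT7 signalling, was at 139 ± 16.4 CPM in WT and 56.1 ± 5.56 CPM in Mmp13-/- (SD, n = 3, log2 fold change −1.31, adjusted p = 0.00019 from edgeR), and its ligand Wnt7b fell by 1.31 as well (adjusted p = 0.0028 from edgeR). Adam10, which RECK restrains, was the gene that rose. GC-corrected, Adgra2 and Wnt7b were both at −0.18 and did not pass, and the median of the list was −0.18. With that correction 1 gene rose and 2 fell, beside 6135 and 2673 of all 24492 genes tested.

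Of 13 partners and relatives of basigin, 6 rose (beside 27.3% of all genes tested), 2 fell (beside 24.3%) and 5 did not pass. Their median log2 fold change was 0.37 beside the −0.39 of Bsg. Slc16a1 and Slc16a3 encode the lactate transporters MCT1 and MCT4, which need basigin to reach the membrane, whereas MCT2, encoded by Slc16a7, pairs with embigin. Slc16a3 stood at 89.5, 91.0 and 103 CPM in WT, against 43.1, 44.6 and 18.5 CPM in Mmp13-/-, a fall of 1.41 on the log2 scale (adjusted p = 0.00247 from edgeR). Slc16a7 stood at 4.43, 3.23 and 3.30 CPM in WT, against 16.2, 15.9 and 14.6 CPM in Mmp13-/-, a rise of 2.09 (adjusted p = 5.68e-05 from edgeR). Emb, the gene of embigin, rose by 0.76 and Nptn, the gene of neuroplastin, by 0.53 (adjusted p = 0.00397 and 0.0206 from edgeR). Slc16a1, at 0.29, did not pass (adjusted p = 0.287 from edgeR), whereas it passed as higher without Mmp13-/- sample 6 (0.50, adjusted p = 0.0138 from edgeR) and with upper-quartile factors (0.48, adjusted p = 0.0384 from edgeR), and it turned to −0.26 with the GC correction. The transporter and the chaperone that pair with each other, Slc16a7 and Emb, were both higher in all 3 Mmp13-/- samples than in any WT sample. The same held for 31.8% of all genes tested. Without any 1 sample other than Mmp13-/- sample 6, 3 genes of the list rose in place of 6, and Nptn did not pass (0.33 to 0.51). Over all genes tested, 5829 to 6905 of 25851 to 26956 rose in those fits. After GC correction Slc16a3 (−0.42), Emb (0.45) and Nptn (0.23) did not pass.

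Set beside these partners within a library, Bsg differed in all 4 ratios without overlap. Bsg to Emb was 74.6, 48.1 and 53.0 in the WT samples 2, 4 and 5, against 27.4, 26.7 and 23.0 in the Mmp13-/- samples 1, 2 and 6, a log2 difference of −1.16. The log2 differences were −0.92 for Bsg to Nptn, −0.64 for Bsg to Slc16a1 and 1.12 for Bsg to Slc16a3. Each had an exact permutation p of 0.1, the smallest possible, which stays 0.1 after adjustment over the 4. With the GC correction, chosen for ratios after seeing the data, Bsg to Slc16a3 was at 0.93 without overlap and Bsg to Emb at −0.06 with overlap. Bsg to Slc16a1 turned to 0.69, without overlap in the opposite direction, and Bsg to Nptn turned to 0.19 with overlap. Ppia, the gene of cyclophilin A, an extracellular ligand of basigin, rose by 1.57 (adjusted p = 0.000104 from edgeR), and its reads may be shared with pseudogene copies. Slc3a2, the CD98 heavy chain found in complexes with basigin, fell by 0.62 (adjusted p = 0.00459 from edgeR) and was at 0.11 with the GC correction.

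**Figure D5:**
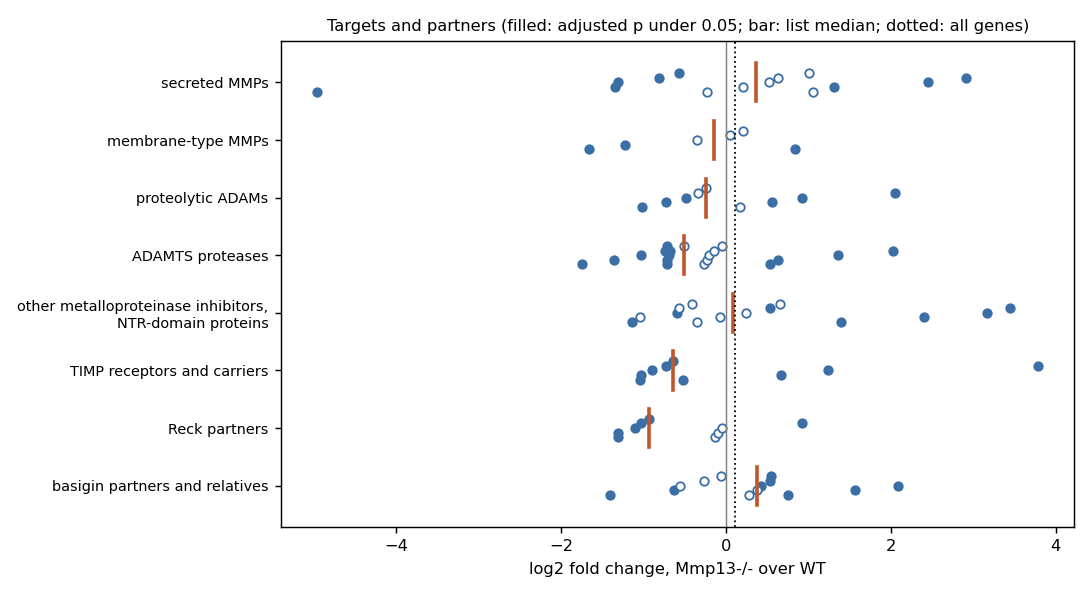
Each point is a tested gene, placed by its log2 fold change of Mmp13-/- over WT (horizontal axis) within 8 lists of targets and partners, filled where the adjusted p is under 0.05, with the list median as an orange bar and the median of all genes tested, 0.10, as a dotted line. The lists spread to both sides of 0, and Reck partners have the lowest median, −0.94.

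Several of the genes share their position with a synapsin gene on the opposite strand. Timp1 lies inside Syn1, Timp3 inside Syn3 and Timp4 inside Syn2, and Cep295nl lies inside Timp2 on the same strand. Exons of Timp3 share 1733 bases with Syn3 (21.3% of the Timp3 exons), those of Timp4 share 90 bases with Syn2 (1.53%), and the other pairs share none. The strand setting of the counting is not given in the sources used here, so reads from the shared bases cannot be told apart by strand. Syn3 rose by 1.01 (adjusted p = 0.0156 from edgeR), a call lost without WT sample 5 (0.70) or Mmp13-/- sample 6 (0.74), and its own count was 1.15% to 1.94% as large as that of Timp3. Syn1, which fell by 1.22 (adjusted p = 0.00156 from edgeR), and Timp1 went in opposite directions, and the count of Syn1 was 13.6% to 72.0% as large as that of Timp1. Syn2, at 0.77, did not pass (adjusted p = 0.0877 from edgeR), although it did when corrected for GC content (1.25, adjusted p = 0.0395 from edgeR), and its count was 16.7% to 40.4% as large as that of Timp4. Cep295nl fell by 0.64, beside the −0.76 of Timp2 (adjusted p = 0.00853 from edgeR), and had a count 2.11% to 3.36% as large. Syn1 (−0.24) and Cep295nl (0.05) did not pass under the GC correction.

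The genes with the most similar pattern over the 6 samples were found by the root mean square difference of log2 CPM, each gene centred on its mean, among 10778 genes. Timp2 was nearest to Col8a1, a short-chain collagen, and Zfp36l2, an RNA-binding decay factor, at 0.0446 and 0.0482 log2 units. Timp3 was nearest to Ndnf and Apod, a lipocalin, at 0.122 and 0.134, and Timp1 to Slc28a2, a nucleoside transporter, and Adpgk at 0.0855 and 0.103. Timp4 was nearest to Wee1 and S100a11 at 0.104 and 0.151, Reck to Focad and Mgat5 at 0.0300 and 0.0306, and Bsg to Tmed9 and D5Ertd579e at 0.0399 and 0.0405. The closest match of Timp3 and of Timp4 lay farther off than that of Reck, Bsg or Timp2.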

How the data were processed

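RNA from dental pulp of 3 WT and 3 Mmp13-/- mice was sequenced by the authors as paired reads and quantified per Ensembl gene in Strand NGS, and mm10 and DESeq are named in the submitters' processing notes. The aligner, annotation release and strand setting are not given in the sources used here. The deposited table holds estimated counts and, on the log2 scale, values that the authors normalized with size factors and centred on each gene's median. The labels name a column kit for extraction and the study's methods name TRIzol.

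Counts were rounded and fitted with edgeR 4.0.16 under R 4.3.3 (TMM factors, filterByExpr by genotype, quasi-likelihood test, Benjamini-Hochberg adjustment over 24534 genes), in place of the study's gene-by-gene test, which became an alternative. CPM is the count divided by the TMM-scaled library size. Exon length, GC content and positions came from GENCODE M21 (GRCm38), in which 99.8% of the Ensembl identifiers were found. Shares and ratios were compared with exact two-sided permutation tests. Samples were grouped by the genotype in the labels. Pairs of libraries differed by 24.1 to 838 in chi-square per degree of freedom, so no pair was treated as 1 library. Averaged over genes, the spread between samples was thus larger than counting error. This was not compared for single genes with few counts, such as Pzp at 8.11, 4.01 and 4.87 in the WT samples.

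Alternatives were other scaling factors, other filters, subtraction of the receptor background, a GC correction (loess, span 0.4, genes with mean log2 CPM above 3), DESeq2 1.42.0, limma 3.58.1 on the deposited log2 values, the study's procedure, and each sample left out. Named genes are the 6 genes, Mmp13, overlapping genes, ratio partners and, in each list, genes with the largest changes in each direction among those that passed. The genes and lists were chosen with earlier results of these data known.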

Additional observations from a re-analysis of the deposited data

How the results depend on the processing

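Timp3 passed under all 18 alternatives. The Timp1 call was lost in DESeq2 (log2 fold change 0.68), in limma on the deposited values and in the study's procedure (0.59 in both), under the added demand of a 2-fold change (0.72), and with samples left out, where its values ran from 0.33 to 0.94. The Timp2 call was lost with total counts (−0.64), the GC correction (−0.087), limma (−0.82) and the demand of a 2-fold change (−0.76), and held without each sample (−0.95 to −0.68). Reck turned positive with upper-quartile factors (0.13), total counts (0.040), at least 10 counts in every sample (0.047), background subtraction (0.066) and the GC correction (0.073). Bsg turned positive with the GC correction (0.41) and passed as lower in DESeq2 (−0.43), in the study's procedure (−0.46) and with factors taken without the most abundant genes (−0.47), and ran from −0.52 to −0.25 with samples left out. With samples left out Timp4 ran from 0.049 to 0.45 and Reck from −0.24 to −0.019. The cause of these changes was not tested.

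For shares of the TIMP pool, the GC correction moved the difference to −19.3 percentage points for Timp2 and 15.5 for Timp3, and raw counts without length moved that of Timp1 to 0.36. For log2 ratios the GC correction gave 0.24 for Timp2 to Mmp14, 1.74 for Timp3 to Adamts5, 0.41 for Reck to Mmp14, 0.059 for the summed TIMPs to MMPs, −0.062 for Bsg to Emb, 0.69 for Bsg to Slc16a1, 0.19 for Bsg to Nptn and −0.0091 for Timp1 to Mmp9. Timp1 to Mmp9 ran from −0.071 to 0.27 with samples left out and turned negative without WT sample 4, and Timp3 to Adam17 ran from 0.29 to 0.75.

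Over all genes, 6710 passed as higher and 5955 as lower. The counts of higher genes were 12716 with no filter, 10492 in DESeq2 and 15942 in the study's procedure, and those of lower genes were 3069 with total counts, 2673 with the GC correction and 3785 in limma. Higher genes were 53.0% of those that passed, and 63.9%, 69.1%, 69.7% and 65.9% with upper-quartile factors, total counts, the GC correction and no filter, 64.1% in DESeq2, 68.6% in limma and 66.4% in the study's procedure. The share was lower with at least 10 counts in every sample (50.3%), background subtraction (51.1%) and factors taken without the most abundant genes, where lower genes were the majority (48.1% higher). Upper-quartile factors and total counts shifted the median over all genes by 0.21 and 0.11 on the log2 scale. No paired analysis was possible because the genotypes share replicate number 2 and no other. With a total of 21561420 counts, Mmp13-/- sample 6 limits Timp1 and Timp4 most, at 132 and 188 counts. Of 35 other named genes that passed, 18 kept their call with the GC correction, 23 in limma and 28 with total counts, and 30 to 33 with a sample left out.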
